A study of Mus musculus with 4 samples.

Results

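Tetraspanins are small membrane proteins that cross the membrane several times and gather integrins, immunoglobulin-like receptors and each other into microdomains. They act in adhesion, membrane fusion, receptor trafficking and the budding of extracellular vesicles. Several of them, Cd9 and Cd63 among them, are raised in the microglial state termed disease-associated microglia (DAM), which lowers homeostatic genes and raises genes of lipid handling and lysosomes.

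The 7 tetraspanin genes described here were chosen by name from the 32285 genes of the deposited matrices, and all 7 were found in all 8 matrices. They were Cd9 and Cd81, close relatives that bind immunoglobulin-like partners and integrins, Cd63, a tetraspanin of late endosomes, lysosomes and exosomes, Cd82 and Cd151, which bind integrins, and Cd53 and Cd37, which are largely restricted to leukocytes. Cells came from adult C57B6/J mice with a cortical brain injury. The dissected hippocampus (HPC) and thalamus of the injured hemisphere were each pooled over mice, sorted for living CD45-positive cells and sequenced as 1 droplet library per region, with lipid-linked multiplexing tags. The deposited matrices held 4 tagged sets of cells for the HPC and 4 for the thalamus, and each set was treated as 1 replicate. The labels do not say whether a set was 1 mouse, so p-values measure the spread between sets, which may be technical. All mice were injured and no uninjured group was analysed here. Region and library cannot be told apart. The sort used no tetraspanin, but it favours leukocytes, so a brain cell without CD45 was not sampled.

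Of 29190 deposited cells, 24939 had between 200 and 7500 detected genes and at most 2% mitochondrial UMIs. Their UMIs (unique molecular identifiers, counted molecules) summed to between 9789875 and 26636526 a set, with medians of 4262 to 4657 UMIs a cell. Gates on marker genes that exclude the 7 members placed 19743 cells as microglia, in which a mean of 10.7 of 12 microglial markers was detected, and left 690 cells ungated. The other classes were 3145 T or natural killer (NK) cells, 866 neutrophils, 292 macrophages or monocytes, 120 dendritic cells and 83 B cells. HPC set 1 stood apart as the largest set, with the highest median mitochondrial share (0.971% against 0.667% to 0.824%). Across the regions 49 barcodes were shared, and within a region 0. A level below is a gene's UMIs per 10,000 UMIs of all genes, summed over the gated cells of a set. Reads came from transcript 3′ ends and levels carry no length correction, so levels were compared between cells and not between genes.

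Microglia were split by how many markers of a state had at least 1 UMI in the cell. DAM-like cells had at least 5 of 13 DAM markers, and homeostatic-like cells had at most 2 of them together with at least 6 of 8 homeostatic markers. These classes are ranges of a score, with 1700 microglia at 4 and 979 at 5 DAM markers. DAM-like cells made up 1.66% to 10.7% of the microglia of an HPC set and 24.7% to 48.9% of those of a thalamus set. Homeostatic-like cells made up 50.7% to 80.6% in the HPC and 15.0% to 38.0% in the thalamus.

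The first question was which tetraspanins differed between the thalamus, remote from the cortical lesion, and the HPC. Cd9 transcripts were about 2-fold higher in thalamic microglia, and Cd63 was higher as well with wider spread. Of the 7 members, 2 passed the threshold (edgeR's quasi-likelihood test on summed counts, Benjamini-Hochberg adjusted p under 0.05), both higher in the thalamus, against 13.5% of all 13241 genes tested. Cd9, a tetraspanin known for its part in cell fusion, adhesion and vesicles, stood at 11.6, 9.73, 10.3 and 10.3 UMIs per 10,000 in HPC sets 1 to 4, and at 28.7, 16.8, 19.98 and 22.3 in thalamus sets 1 to 4. Every thalamus set lay above every HPC set, also on the TMM-scaled counts of the fit, where Cd9 was the only member of 7 and 11.3% of all genes tested did so. The means were 10.5 ± 0.776 in the HPC and 21.9 ± 5.02 in the thalamus (SD, n = 4 each). The fitted log2 fold change was 1.13 (SE 0.17, edgeR adjusted p = 0.00396). It was called under each of the 16 alternatives run, at 0.96 to 1.25. Cd63, which marks late endosomes and exosomes, stood at 9.04, 5.69, 4.93 and 6.35 in HPC sets 1 to 4 and at 14.3, 10.9, 9.08 and 10.5 in thalamus sets 1 to 4. HPC set 1 lay just below thalamus set 3, with the other HPC sets well below all thalamus sets. Its log2 fold change was 0.84 (SE 0.22, edgeR adjusted p = 0.0322).

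The call of Cd63 depended on single sets and settings, while its log2 fold change stayed between 0.66 and 1.08 in the 16 alternatives. It was lost in 7 of them: without Malat1-poor cells (log2 0.66, edgeR adjusted p = 0.0668) and, one at a time, without HPC set 2 (adjusted p = 0.0995), set 3 (0.0733) or set 4 (0.0871), or without thalamus set 1 (0.0822), set 2 (0.0587) or set 4 (0.0669), where the log2 fold change was 0.68 to 0.88. Without HPC set 1 the log2 fold change was 1.08 (edgeR adjusted p = 0.00211). Malat1-poor cells, with under 40 UMIs per 10,000 of this nuclear RNA, numbered 953 of the microglia and 675 of them were DAM-like. Cd9 kept a log2 fold change of 1.03 without them (edgeR adjusted p = 0.00398).

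The other 5 members were not called between the regions. Cd81, which binds immunoglobulin-like partners, stood at 18.2, 16.8, 15.7 and 16.3 in the HPC sets and at 19.5, 17.5, 17.6 and 17.5 in the thalamus sets. The ranges overlapped through HPC set 1, and the log2 fold change was 0.17 (SE 0.09, edgeR adjusted p = 0.241). Without HPC set 1 it was 0.24, which passed (edgeR adjusted p = 0.0442). Cd82, a binder of integrins first known as a suppressor of metastasis, was at 0.987, 0.881, 0.795 and 0.808 in the HPC and at 0.612, 0.728, 0.784 and 0.722 in the thalamus. The highest thalamus set lay just below the lowest HPC set, the TMM-scaled counts overlapped, and the log2 fold change was -0.23 (SE 0.09, edgeR adjusted p = 0.126). The leukocyte pair Cd53 and Cd37 had nearly equal means in both regions, 3.62 ± 0.215 against 3.64 ± 0.202 for Cd53 and 4.19 ± 0.273 against 4.20 ± 0.0766 for Cd37 (HPC first, SD, n = 4 each). Cd151, a partner of laminin-binding integrins, stayed between 0.258 and 0.349 in all 8 sets. With scaling by total UMIs, chosen after seeing the data, 46.0% of all calls in this comparison were higher in the thalamus in place of 63.7%, and Cd9 and Cd63 remained called (log2 1.07 and 0.78).

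**Figure D1:**
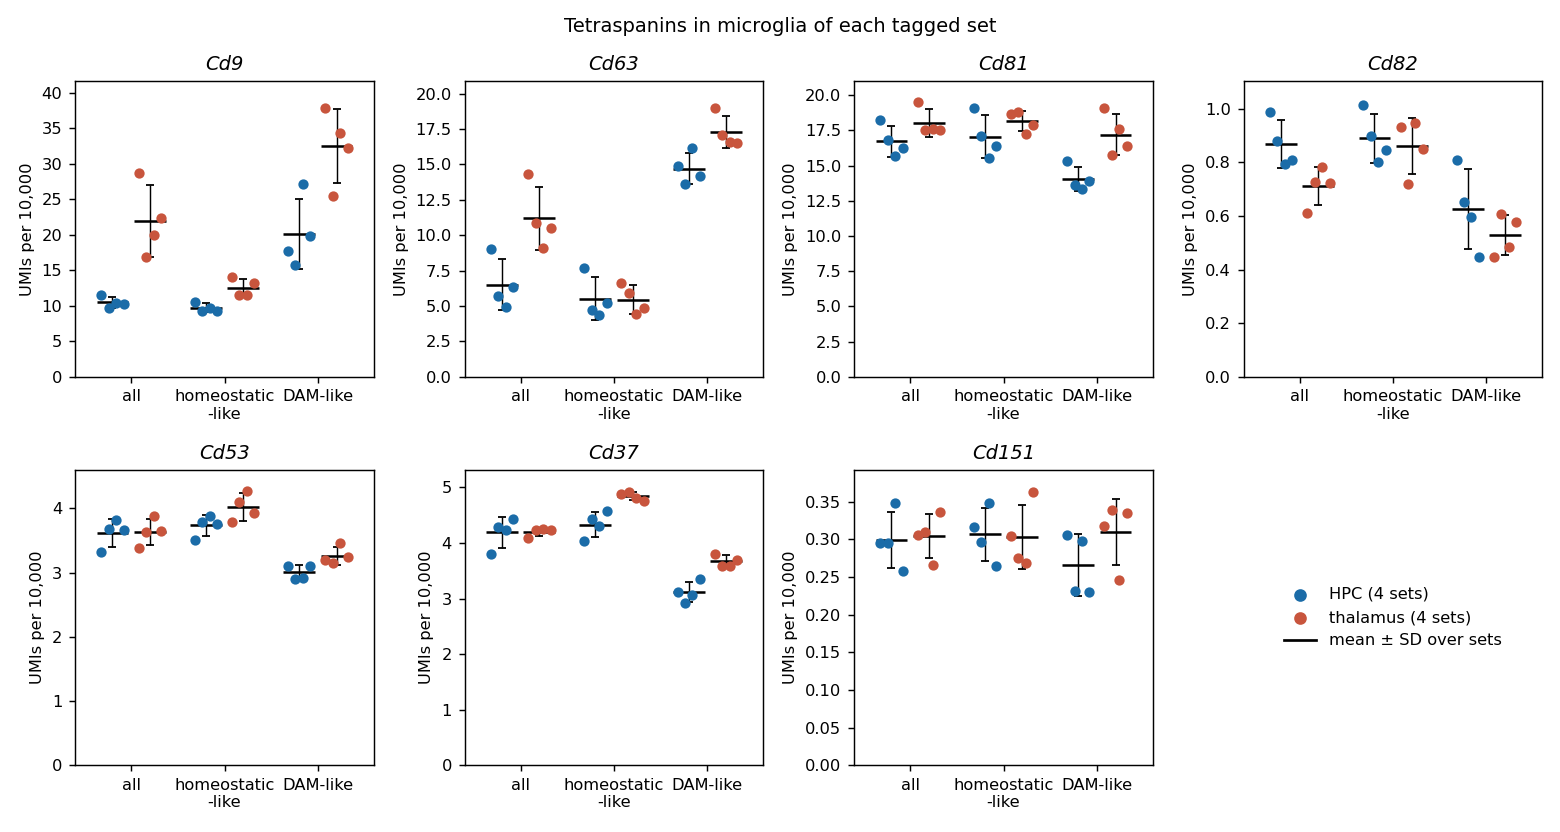
UMIs per 10,000 of each tetraspanin (vertical axes, linear from 0) in every set for all gated microglia, homeostatic-like microglia and DAM-like microglia, with HPC sets in blue, thalamus sets in red and the mean ± SD in black. Cd9 and Cd63 are highest in DAM-like cells, and the 4 thalamus sets exceed the 4 HPC sets for Cd9 in all microglia.

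The share of microglia with at least 1 Cd9 UMI differed less than the level. With each cell thinned to 2868 UMIs, which left out 780 HPC and 1193 thalamus microglia with fewer, 89.8% ± 0.813 of HPC and 93.8% ± 2.36 of thalamus microglia held a Cd9 UMI (SD, n = 4 each). The exact permutation test gave p = 0.0286, the smallest that 4 against 4 sets allow, and 0.2 after adjustment over the 7 members. Cd63 was held by 73.7% in the HPC and 79.9% in the thalamus (exact permutation p = 0.257). Cd81 was held by 97.7% and 97.1%, and Cd82 by 22.2% and 19.3% (exact permutation p = 0.0571 for Cd82). T or NK cells, thinned likewise, held a Cd9 UMI in 17.98% and a Cd81 UMI in 16.5%. The regions parted more in the number of Cd9 UMIs: thinned cells with at least 6 made up 38.7% ± 10.96 of thalamus and 13.4% ± 2.16 of HPC microglia. Of those cells, a mean of 57.3% was DAM-like in the thalamus and 14.3% in the HPC.

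DAM-like and homeostatic-like microglia of the same sets were then compared. Cd63 and Cd9 were both raised in DAM-like cells, Cd82 and Cd37 were lowered, and Cd53, Cd81 and Cd151 were not called. These 4 calls among 7 members stood against 44.8% of all 10940 genes tested, so a call alone was common in this comparison. Each set entered the fit as a block, so its own cells of both states were compared.

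Cd63 stood at 7.70, 4.74, 4.37 and 5.23 in homeostatic-like cells of HPC sets 1 to 4 and at 14.9, 13.6, 16.1 and 14.2 in their DAM-like cells. In thalamus sets 1 to 4 it rose from 6.62, 5.90, 4.41 and 4.87 to 19.0, 17.1, 16.6 and 16.5. The states did not overlap in either region, and the ratio within a set was 1.94 at the lowest, 2.89 at the median and 3.77 at the highest. The log2 fold change was 1.74 (SE 0.08, edgeR adjusted p = 5.97e-13). Cd9 stood at 10.6, 9.25, 9.73 and 9.29 in homeostatic-like and at 17.7, 15.8, 27.1 and 19.8 in DAM-like cells of the HPC sets. In the thalamus sets these levels were 14.03, 11.5, 11.6 and 13.1 against 37.8, 25.5, 34.3 and 32.2. All 8 sets were higher in DAM-like cells, by 1.68 to 2.97 times, and the log2 fold change was 1.37 (SE 0.09, edgeR adjusted p = 3.34e-11). With cells thinned to 2868 UMIs the log2 fold changes were 1.67 for Cd63 and 1.31 for Cd9. The states were gated before thinning. Set medians were then 5738 to 6871 UMIs in DAM-like and 4125.5 to 4797 in homeostatic-like cells.

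The members that fell were both lower in DAM-like cells of all 8 sets. Cd37, which is largely restricted to leukocytes, was at 4.03 to 4.92 in homeostatic-like and at 2.92 to 3.81 in DAM-like cells. The fitted log2 value was -0.24 (SE 0.05, edgeR adjusted p = 0.00035). Cd82 was at 0.718 to 1.01 in homeostatic-like and at 0.446 to 0.810 in DAM-like cells, and its fitted log2 value was -0.43 (SE 0.09, edgeR adjusted p = 0.00035). Cd53 had within-set ratios of 0.752 to 0.886, below 1 in all 8 sets, and a fitted log2 value of -0.11 (SE 0.05, edgeR adjusted p = 0.0659). Cd81 had ratios of 0.794 to 1.02 and Cd151 of 0.778 to 1.23, with log2 fold changes of 0.0037 (SE 0.06) and 0.14 (SE 0.09). Cd53 was called lower with DESeq2 (-0.12, adjusted p = 0.0254), with no filter (-0.15, edgeR adjusted p = 0.0376) and without HPC set 1 (-0.16, edgeR adjusted p = 0.0117), and Cd151 was called higher with a mitochondrial limit of 5% (0.21, edgeR adjusted p = 0.0441).

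Scaling also moved the members with small changes. The fitted values use TMM factors, which set the median gene near 0, while the levels and within-set ratios use total UMIs. By total UMIs, an alternative chosen after seeing the data, the median of all genes was -0.19, 57.3% of genes were called and the share of calls that were higher fell from 53.8% to 26.4%. Cd53 (log2 -0.30, edgeR adjusted p = 2.21e-05) and Cd81 (log2 -0.18, edgeR adjusted p = 0.0113) were then called lower as well, so 6 members passed. Cd63, Cd9, Cd82 and Cd37 kept their direction and call under both scalings, at log2 1.56, 1.19, -0.61 and -0.43 by total UMIs.

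The RefSeq promoter windows of Cd63 and Cd9, which were raised in DAM-like cells, and of Cd37, which was lowered, are shown because these members moved together or apart. Each window runs from 250 bases before to 50 after the annotated start on build GRCm38.p6, read 5′ to 3′ on the gene's strand. They lie at chr10:128909095-128909394 on the plus strand (Cd63), chr6:125494711-125495010 on the minus strand (Cd9) and chr7:45238790-45239089 on the minus strand (Cd37). Capitals mark every match on either strand to CACGTG (an E-box), TGANTCA (the AP-1 motif), GAGGAAG (a core of the PU.1 motif) or GGGCGG (a GC box).
Cd63: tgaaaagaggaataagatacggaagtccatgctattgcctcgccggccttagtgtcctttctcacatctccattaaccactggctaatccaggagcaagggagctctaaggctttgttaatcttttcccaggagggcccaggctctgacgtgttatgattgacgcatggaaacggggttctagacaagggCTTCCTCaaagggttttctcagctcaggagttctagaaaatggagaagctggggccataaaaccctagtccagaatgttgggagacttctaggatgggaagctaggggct
Cd9: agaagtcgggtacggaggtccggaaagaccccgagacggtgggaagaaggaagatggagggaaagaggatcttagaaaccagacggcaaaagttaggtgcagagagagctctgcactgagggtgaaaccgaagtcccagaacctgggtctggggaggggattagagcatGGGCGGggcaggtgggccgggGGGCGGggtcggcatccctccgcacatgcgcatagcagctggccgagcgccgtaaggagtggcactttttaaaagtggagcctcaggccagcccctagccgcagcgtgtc
Cd37: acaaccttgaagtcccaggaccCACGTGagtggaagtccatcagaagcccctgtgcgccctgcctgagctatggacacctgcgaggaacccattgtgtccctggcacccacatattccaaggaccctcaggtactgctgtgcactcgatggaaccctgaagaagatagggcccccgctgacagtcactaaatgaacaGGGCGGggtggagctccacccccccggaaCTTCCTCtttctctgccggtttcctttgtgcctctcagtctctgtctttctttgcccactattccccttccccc
The Cd63 window held 1 match to GAGGAAG, with its first base at -60 from the start. The Cd9 window held 2 matches to GGGCGG, at -81 and -60. The Cd37 window held GAGGAAG at -24, GGGCGG at -53 and CACGTG at -228. Of 32851 promoter windows of this length, 13.6% held GAGGAAG, 35.7% GGGCGG, 7.15% CACGTG and 7.81% TGANTCA, so each of these matches is common. The listed motifs did not overlap one another in these windows. A match describes letters and is not a bound site.

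Positions were taken from a separate annotation (GRCm38, GENCODE M21), matched by gene identifier. There Cd9 (ENSMUSG00000030342) spans chr6:125460266-125494791 on the minus strand and Cd63 (ENSMUSG00000025351) spans chr10:128900989-128912822 on the plus strand. Cd81 (ENSMUSG00000037706) lies at chr7:143052739-143067934, Cd151 (ENSMUSG00000025510) at chr7:141467392-141471473, both on the plus strand, and Cd37 (ENSMUSG00000030798) at chr7:45233632-45239115 on the minus strand. Cd82 (ENSMUSG00000027215) lies at chr2:93419111-93463140 and Cd53 (ENSMUSG00000040747) at chr3:106759921-106790149, both on the minus strand. All 7 are protein-coding. Annotated genes on the opposite strand overlap Cd9, Cd81, Cd82, Cd37 and Cd151, and overlap neither Cd63 nor Cd53. The strand setting of the counting is not given in the sources used here.

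Across the number of DAM markers in a cell, Cd9 and Cd63 rose in the same order. Mean Cd9 over sets was 11.1 at 0 to 1 markers, 12.4 at 3, 20.6 at 5 to 6 and 36.6 at 9 or more. Cd63 was at 5.36, 7.08, 12.2 and 21.6 in the same classes. The means of both regions followed this order, but at 5 to 6 markers Cd9 was at 25.01 ± 3.94 in 4 thalamus sets and at 14.7 ± 0.972 in 3 HPC sets, while Cd63 was at 13.2 ± 1.11 and 10.9 ± 0.442. Cd82 fell from 0.864 to 0.447 and Cd37 from 4.62 to 3.36 between the lowest and the highest class. Cd53 went from 3.84 to 3.19 and Cd81 from 17.7 to 14.6, and Cd151 stood at 0.300 and 0.307. The highest class rests on 936 cells and 5 sets with sums, 1 of them from the HPC, and the lowest on 5450 cells of 8 sets.

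**Figure D2:**
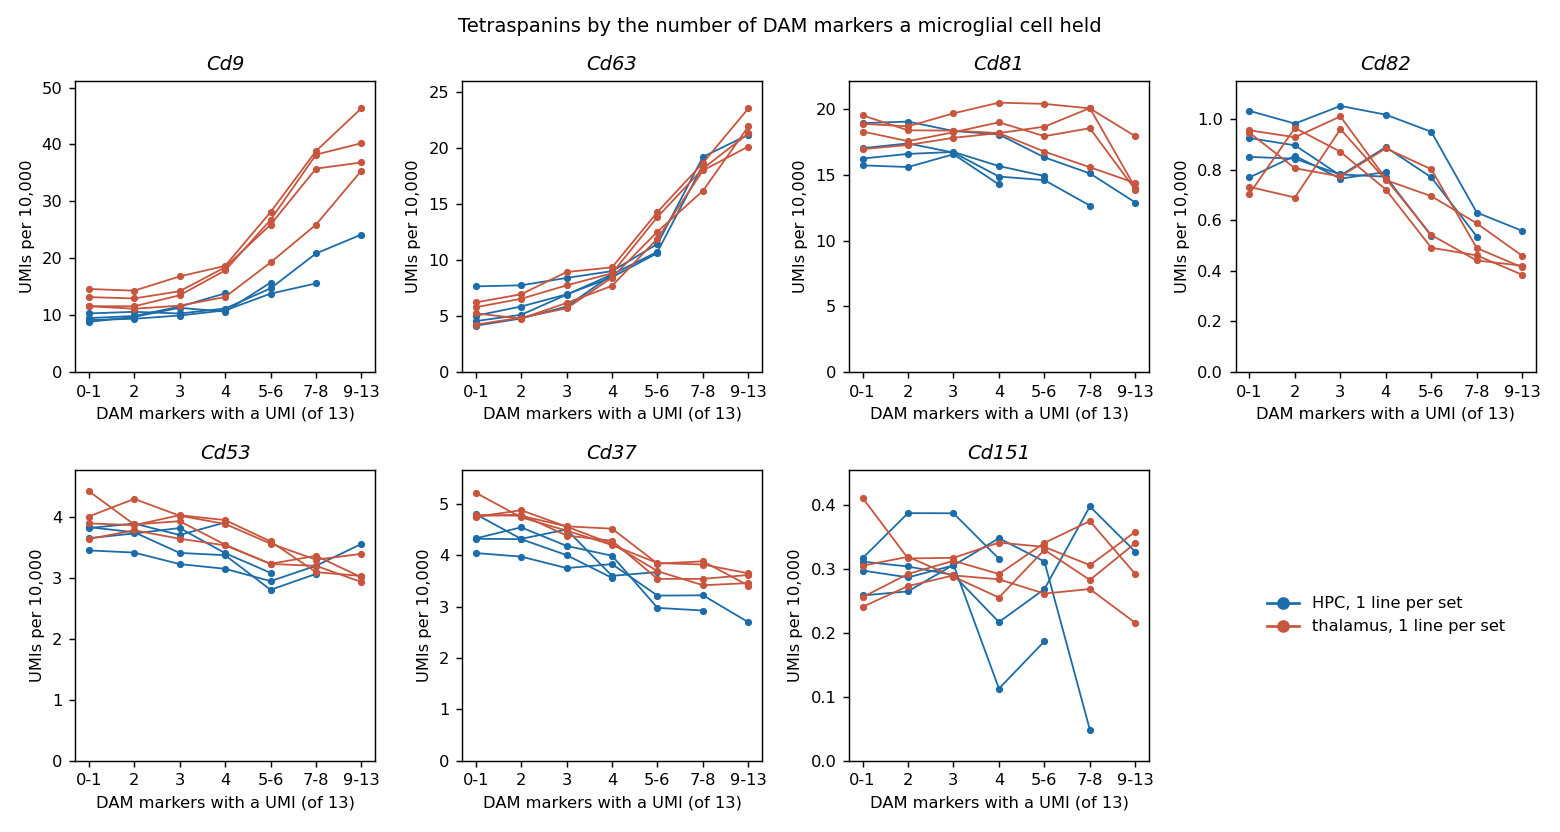
UMIs per 10,000 of each tetraspanin (vertical axes, linear from 0) against the number of DAM markers detected in a cell (horizontal axes), 1 line per set, HPC in blue and thalamus in red. Cd9 and Cd63 climb from 4 markers upward, from means of 14.3 and 8.65 to 36.6 and 21.6. Sums of under 20 cells are not drawn. Among drawn sums the thalamus lines of Cd9 lie above the HPC lines except at 4 markers, where the highest HPC set (13.8) exceeds the lowest thalamus set (13.2). Some HPC sums left out overlap the thalamus range. At 5 to 6 markers HPC set 3 (19 cells) had 20.03 and thalamus set 2 had 19.27. At 7 to 8 markers HPC sets 3 and 4 (8 and 15 cells) had 32.9 and 27.2, and thalamus set 2 had 25.9. At 9 or more markers HPC set 3 (6 cells) had 37.7, and thalamus sets 2 and 4 had 35.4 and 36.8.

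Between the regions, cells of 1 state were compared next. DAM-like cells span a range of DAM marker numbers, and high numbers were more common in the thalamus. Microglia with 5 to 6, 7 to 8 and 9 or more markers numbered 497, 396 and 356 in thalamus set 1. In HPC set 1 they numbered 244, 88 and 60. Within DAM-like cells Cd9 remained higher in the thalamus. It was the only one of 7 members called, against 2.50% of all 10850 genes tested. Its mean was 20.1 ± 4.96 in the HPC and 32.4 ± 5.20 in the thalamus (SD, n = 4 each), and the log2 fold change was 0.76 (SE 0.14, edgeR adjusted p = 0.00951). The ranges overlapped, because HPC set 3, with 33 DAM-like cells, stood at 27.1 and thalamus set 2 at 25.5. The call held in each of the 16 alternatives, at 0.67 to 0.90, and was 0.90 without HPC set 3.

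Cd63, Cd81, Cd37 and Cd53 were higher in every thalamus set than in every HPC set of DAM-like cells, on the TMM-scaled counts, as 4.92% of all genes tested were, but did not pass. Cd81 stood at 15.3, 13.6, 13.4 and 13.9 in the HPC and at 19.1, 15.8, 17.6 and 16.4 in the thalamus (log2 0.33, SE 0.09, edgeR adjusted p = 0.0576). Cd63 had a log2 difference of 0.29 (SE 0.08, edgeR adjusted p = 0.0735) and Cd37 of 0.27 (SE 0.08, edgeR adjusted p = 0.0828). At 5 to 6 DAM markers mean Cd63 was at 10.9 in 3 HPC sets and at 13.2 in the thalamus. At 7 to 8 markers Cd63 was at 18.9 in 2 HPC sets and at 17.8 in the thalamus. At 9 or more it was at 21.2 in 1 HPC set and at 21.7 in the thalamus. Cd37 was at 3.12, 2.92, 3.07 and 3.35 in the HPC and at 3.81, 3.58, 3.58 and 3.70 in the thalamus. Counts of called members under other settings ran from 1 to 4, with Cd81 and Cd63 each called in 6 of 16 and Cd37 in 2, and with stricter gates the log2 difference of Cd63 was 0.0028. By total UMIs, 52.3% of all calls in DAM-like cells were higher in the thalamus in place of 65.7%. The summed level of 10 neutrophil markers was 8.64 in DAM-like cells of HPC set 1 and 3.98 to 4.90 in those of the other 7 sets. The 5 genes listed as likely free RNA summed to 4.66 in that set and to 0.574 to 0.876 in the other 7. The log2 fold change of Cd9 was 0.72 without HPC set 1 (edgeR adjusted p = 0.0453).

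In homeostatic-like cells 0 of 7 members were called (edgeR), against 0.434% of all 11743 genes tested. At an unadjusted p under 0.05 edgeR listed 1430 genes, with Cd9 and Cd37 the 2 members among them. DESeq2 called 1 member, Cd9. Cd9 was at 9.71 ± 0.615 in the HPC and 12.6 ± 1.24 in the thalamus (SD, n = 4 each), with a log2 difference of 0.36 (SE 0.09, edgeR adjusted p = 0.132). Without HPC set 1 it was 0.43 and passed (edgeR adjusted p = 0.00168). On the TMM-scaled counts Cd9, Cd37 and Cd53 were higher in every thalamus set than in every HPC set, as were 4.29% of all genes. Cd37 stood at 4.03, 4.43, 4.30 and 4.58 in the HPC and at 4.88, 4.92, 4.81 and 4.75 in the thalamus (log2 0.16, SE 0.05, edgeR adjusted p = 0.255). For Cd63 the regions overlapped widely and the log2 difference was -0.03 (SE 0.19, edgeR adjusted p = 0.978), with the highest set, 7.70, being HPC set 1.

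Whether the state difference itself was larger in the thalamus was tested as an interaction of region and state. It was called for 0 of 7 members (edgeR), against 0.484% of genes, with 930 genes at an unadjusted p under 0.05. For Cd9 the extra log2 change in the thalamus was 0.43 (SE 0.13, edgeR adjusted p = 0.231). Leaving out HPC set 3 made it 0.56, which passed (edgeR adjusted p = 0.0416). The values were 0.34 (SE 0.14) for Cd63 and 0.28 (SE 0.10) for Cd81.

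**Figure D3:**
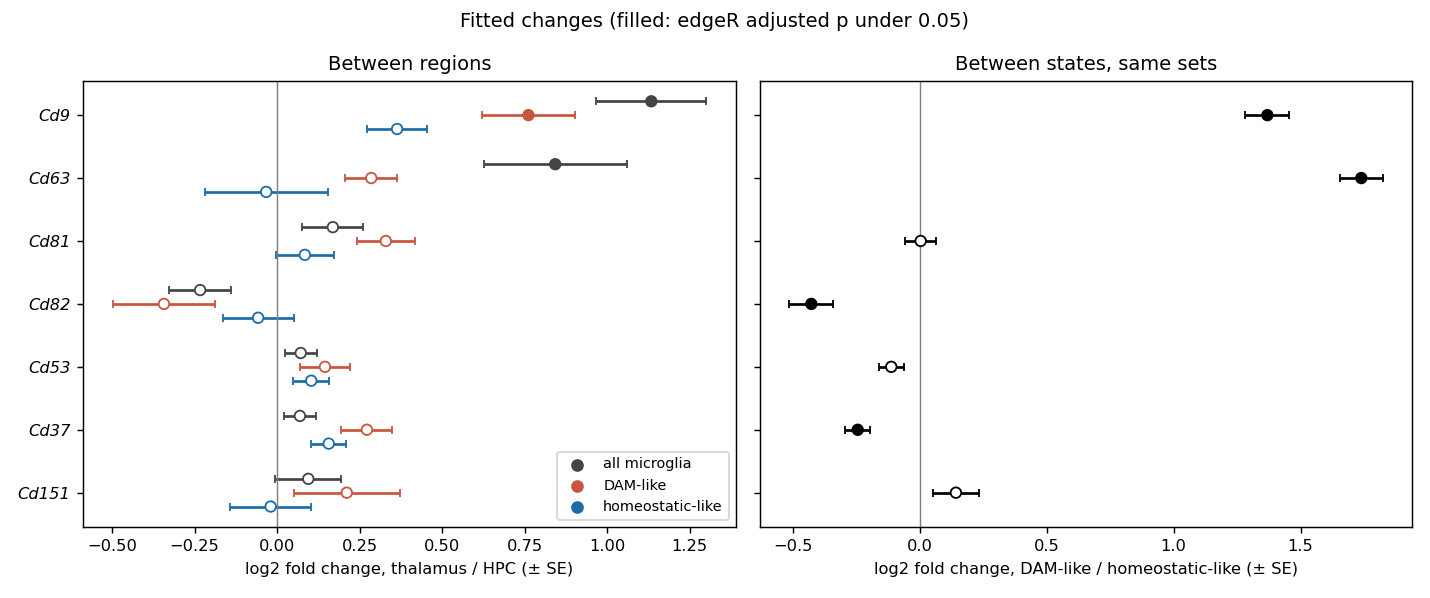
Fitted log2 fold changes ± SE of the 7 tetraspanins (horizontal axes), on the left thalamus over HPC in all microglia (grey), DAM-like (red) and homeostatic-like cells (blue), on the right DAM-like over homeostatic-like cells. Filled points have an edgeR adjusted p under 0.05: Cd9 at 1.13 and 0.76 and Cd63 at 0.84 on the left, and Cd63 at 1.74, Cd9 at 1.37, Cd37 at -0.24 and Cd82 at -0.43 on the right.

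The other microglial states were set against homeostatic-like cells of the same sets. Interferon-like cells had Cd63 as their only called member (log2 0.28, SE 0.08, edgeR adjusted p = 0.0154), against 16.0% of genes called. In MHC class II-like cells, with antigen-presentation genes raised, Cd63 was again the only one (log2 0.53, SE 0.09, edgeR adjusted p = 3.58e-05), against 10.2% of genes. Cells of both states could hold any number of DAM markers under 5, and homeostatic-like cells at most 2. In all microglia mean Cd63 was at 5.36 at 0 to 1 DAM markers, 5.83 at 2, 7.08 at 3 and 8.65 at 4. The part of DAM marker numbers in these Cd63 calls was not tested. Cd9 in interferon-like cells was at 7.84 to 10.0 in the HPC and at 12.5 to 20.1 in the thalamus. Cycling cells reached 20 in only 2 thalamus sets, set 1 with 86 cells and set 4 with 20. There 5 members were called, against 28.8% of genes, with Cd9 (log2 1.58, SE 0.14), Cd63 (1.43, SE 0.15) and Cd81 (0.71, SE 0.11) higher and Cd82 (-0.92, SE 0.31) and Cd37 (-0.54, SE 0.15) lower. Cd81 was at 24.7 and 28.6 in these cycling cells, above its 17.3 to 18.8 in homeostatic-like cells of the thalamus sets. Cells that met the cycling gate were counted as cycling whatever their number of DAM markers. Those with at least 5 DAM markers were not set apart, and their part in these differences was not tested.

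Across the sorted classes the order of levels was not the same for all members, while Cd63 and Cd81 shared the same order. Cd81 was highest in microglia, Cd9 and Cd63 were high in microglia and neutrophils, and Cd82 was highest in T or NK cells. Against microglia, edgeR called 7 of 7 members in T or NK cells (77.0% of genes were called), 6 in macrophages or monocytes (58.4%), 4 in neutrophils (67.7%) and 6 in dendritic cells (43.2%). Differences between classes are therefore the rule for genes in general. The median log2 fold change of all genes was -0.00 in T or NK cells and -0.22 to -0.25 in the other 3 classes, and each change below is read beside it. Levels are means ± SD over sets with at least 20 cells of the class: 8 for microglia and T or NK cells, 6 for neutrophils, 5 for macrophages or monocytes and 3 for dendritic cells.

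Cd81 was at 17.4 ± 1.18 in microglia and at 1.41 ± 0.446 in neutrophils, 1.08 ± 0.327 in macrophages or monocytes, 0.941 ± 0.259 in T or NK cells and 0.394 in dendritic cells. Its log2 fold change against microglia ran from -3.39 in neutrophils to -5.37 in dendritic cells. The microglial genes P2ry12, Tmem119 and Cx3cr1 reached a median of 2.51% to 4.43% of their microglial level in T or NK cells, and Cd81 reached 4.84%. Where these UMIs came from was not tested. In B cells Cd81 reached 13.2% of the microglial level, in the 1 set with enough cells. Pooled over 83 B cells Cd81 was at 2.78 (95% Poisson interval 2.39 to 3.22, counting error only).

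Cd9 was at 16.2 ± 6.97 in microglia, where the SD includes the gap between the regions, and at 12.7 ± 4.14 in neutrophils. Its log2 difference in neutrophils was -0.05 and was not called. In the 11 alternatives it ran from -0.37 to -0.076 and was again not called. Microglia exceeded neutrophils in 5 of 6 sets. Neutrophil Cd9 was at 14.3, 9.28 and 7.51 in HPC sets 1, 2 and 4 and at 19.3, 12.6 and 13.1 in the same-numbered thalamus sets, with overlapping ranges. In T or NK cells Cd9 was at 1.31 ± 0.817, and it was at 0.259 to 1.00 in the HPC and 1.26 to 2.41 in the thalamus, the order seen in microglia of the same libraries. It was 7.96% of the microglial level there, above the 4.43% of Tmem119. By which list led, 138 NK cells held 3.79 (95% Poisson interval 3.31 to 4.32) and T cells 1.26 (1.20 to 1.33).

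Cd63 was at 8.85 ± 3.13 in microglia, 6.62 ± 2.22 in neutrophils, 2.52 ± 1.28 in macrophages or monocytes and 0.781 ± 0.376 in T or NK cells. Its log2 fold change was -3.64 in T or NK cells, -1.99 in macrophages or monocytes and -3.91 in dendritic cells, and -0.18 in neutrophils, which was not called. The neutrophil value passed in 3 of 11 alternatives: with stricter gates (-0.38), by total UMIs (-0.44) and without HPC set 3 (-0.52, edgeR adjusted p = 0.0223). The macrophage or monocyte class was mixed: 61 cells led by border macrophage markers held 8.75 (95% Poisson interval 7.72 to 9.87), near the microglial mean, and 226 led by monocyte markers held 0.955 (0.811 to 1.12).

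Cd82 had another order. It was at 2.33 ± 0.481 in T or NK cells, 1.49 ± 0.281 in neutrophils, 1.00 ± 0.330 in dendritic cells, 0.790 ± 0.112 in microglia and 0.471 ± 0.188 in macrophages or monocytes. In T or NK cells it stood at 1.87, 2.40, 2.20 and 2.63 in the HPC sets and at 1.91, 2.00, 2.31 and 3.33 in the thalamus sets, above every microglial value. The log2 fold change was 1.49 (SE 0.12) in T or NK cells and 1.15 (SE 0.18) in neutrophils. In macrophages or monocytes it was -0.57 (edgeR adjusted p = 0.0217), a call lost with a stricter gate (0.0752) and without thalamus set 1 (0.108), set 2 (0.150) or set 4 (0.0600).

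The leukocyte pair was spread over all classes. Cd53 was at 4.76 ± 0.869 in neutrophils, 3.63 ± 0.193 in microglia, 3.34 ± 0.979 in macrophages or monocytes and 2.44 ± 0.271 in T or NK cells. It was higher in neutrophils (log2 0.72, SE 0.13), lower in T or NK cells (-0.65) and dendritic cells (-0.76), and not called in macrophages or monocytes (-0.04). Cd37 was at 4.20 ± 0.186 in microglia, 3.58 ± 0.760 in neutrophils and 2.95 ± 0.283 in T or NK cells, and at only 0.990 ± 0.259 in macrophages or monocytes (log2 -2.04). The Cd37 difference in neutrophils was 0.03 and not called, but it was negative in 8 of 11 alternatives and called lower with DESeq2 (-0.24, adjusted p = 0.0276) and without HPC set 3 (-0.29, edgeR adjusted p = 0.0311). In pooled B cells, where Cd37 is known from the B cell surface, it was at 6.18 (95% Poisson interval 5.58 to 6.82). Cd151 was at 0.302 ± 0.0310 in microglia and at 0.140 or less in the other 4 classes with tests, lower in each (log2 -1.34 to -2.19).

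The 28 pairs of classes next to each other in a member's order were compared by the exact paired permutation test over shared sets. None passed after adjustment (smallest adjusted p = 0.175), and none could have. Even with every pair at the smallest p its sets allow, all adjusted values would stay above the threshold for a call. The adjusted test therefore cannot decide whether neighbouring classes differ. Microglia exceeded neutrophils in Cd81 in 6 of 6 sets, and T or NK cells exceeded neutrophils in Cd82 in 6 of 6 sets (exact permutation p = 0.03125 each, the smallest 6 sets allow). With 5 sets p cannot go below 0.0625 and with 3 not below 0.25.

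**Figure D4:**
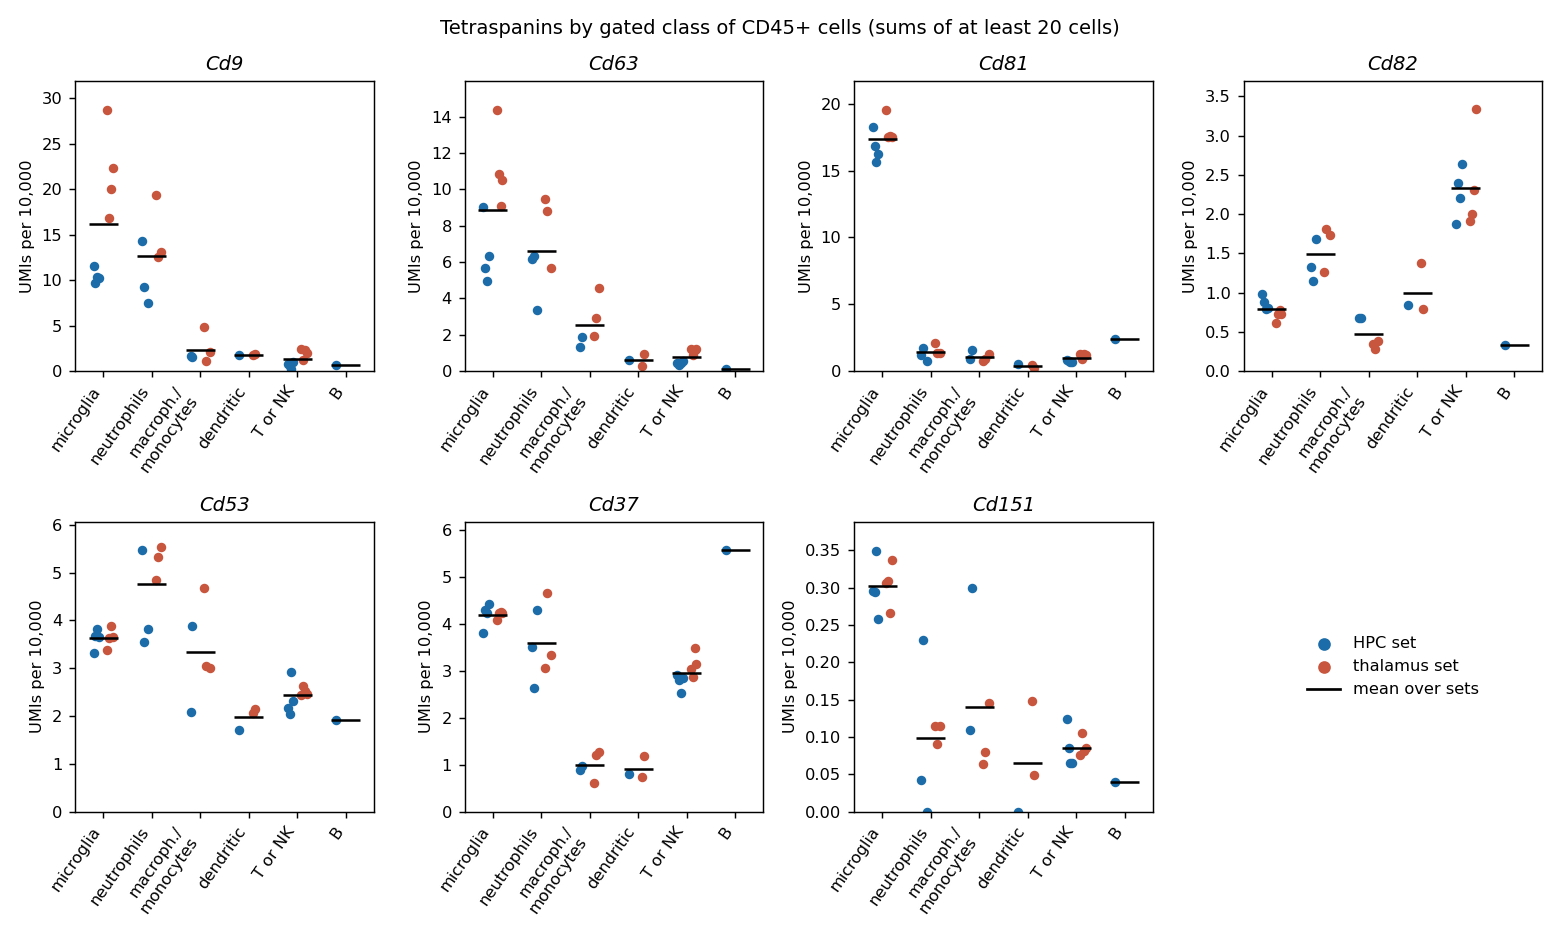
UMIs per 10,000 of each tetraspanin (vertical axes, linear from 0) by gated class, 1 point per set with at least 20 cells of the class, HPC in blue and thalamus in red, the bar giving the mean over sets. Cd81 stands at 17.4 in microglia and at 1.41 or less in the 4 classes with several sets, and Cd82 stands highest in T or NK cells, at 2.33.

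Over 63 sums of sets, classes and states and 9639 genes, the gene with the pattern most like Cd9 was Cd63 (Pearson's r of log2 levels 0.92), followed by Creg1 (0.90) and the lysosomal protease gene Ctsd (0.89). For Cd63 these were Cd9, Creg1 and Ctsd, at 0.92 each. Cd81 was close to Lhfpl2 (0.97) and Sparc (0.96), Cd82 to Ncor1 (0.86), Cd53 to Glis3 (0.84), Cd37 to Itpr2 (0.88) and Cd151 to Pld1 (0.87). The sums share sets, libraries and depth, and these values are descriptions.

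In thinned microglia grouped by their own Cd9 UMIs, the other members moved to different extents. From 0 to at least 6 Cd9 UMIs, mean Cd63 over the 8 sets went from 5.57 ± 1.90 to 12.6 ± 3.32 and Cd81 from 15.2 ± 0.694 to 19.98 ± 1.22. Cd82 went from 0.822 to 0.737, Cd53 from 3.49 to 3.60, Cd37 from 4.10 to 4.35 and Cd151 from 0.231 to 0.363. The cells with many Cd9 UMIs were more often DAM-like in both regions, and these levels were not tested.

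Of 24 further tetraspanin genes, 14 were tested between the regions in all microglia, with 3 called higher and 1 called lower in the thalamus, against 13.5% of all genes called. Tspan5, a partner of the sheddase ADAM10, was higher by 0.51 in log2 (SE 0.11, edgeR adjusted p = 0.0163) and Tspan31 by 0.21 (edgeR adjusted p = 0.0259), and Tspan7 was lower by -0.33 (SE 0.05, edgeR adjusted p = 0.00631). Tspan17, the third, had a mean under 20 CPM (counts scaled to library size in edgeR). Their median was -0.15, beside -0.01 for all genes. Within DAM-like and within homeostatic-like cells edgeR called 0 of 13 and 0 of 12. Between the states 12 were tested, with 44.8% of all genes called, and Tspan5 was higher (log2 0.93) while 6 were lower: Upk1b (-1.81), Tspan18 (-1.55), Tspan13 (-0.77), Tspan33 (-0.57), Tspan7 (-0.37) and Tspan14 (-0.32), with a median of -0.21 beside -0.00 for all genes. Tspan5 was thus the only one of these genes called higher, as Cd63 and Cd9 were.

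Of 33 known tetraspanin partners, integrins, immunoglobulin-like proteins and trafficking proteins among them, 24 were tested between the states, and 12 were higher and 8 lower in DAM-like cells, where 44.8% of all genes were called (median log2 0.36, beside -0.00 for all genes). The largest among those with at least 20 CPM were the adhesion receptor gene Cd44 (2.42), Ifitm3 (2.37), the integrin genes Itga4 (2.05) and Itga5 (1.04), and Sdcbp (0.62), which encodes syntenin, an adaptor that binds CD63 in exosome formation. Itga4 is also a monocyte marker. Cells that met the interferon gate were left out of homeostatic-like but not of DAM-like cells. The part of this in the Ifitm3 difference was not tested. Between the regions in all microglia, 27 were tested and 2 were higher, with 13.5% of all genes called and a median of 0.11 beside -0.01 for all genes. They were Sdcbp (log2 0.30, edgeR adjusted p = 0.0300) and Cd36, a gene under 20 CPM. In DAM-like cells 25 were tested and 2 were lower in the thalamus, with 2.50% of all genes called and a median of -0.07 beside -0.00: Cd44 (-0.64, edgeR adjusted p = 0.0282) and Vcam1 (-1.74, edgeR adjusted p = 0.00124), while Cd9 was higher there. In homeostatic-like cells edgeR called 0 of 23.

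Markers of other cells were summed in the microglial sums of each region. The summed level of the 6 oligodendrocyte markers was 0.715 to 0.774 in HPC and 0.684 to 0.760 in thalamus microglia. The 10 neutrophil markers summed to 4.82 to 6.02 in the HPC and 4.32 to 4.58 in the thalamus, with 8 to 10 of them above 0 in each set. In the 6 sets with enough neutrophils, S100a8 and S100a9 had means of 0.191 and 0.184 in microglia. In neutrophils of these sets they stood at 269 and 355. Most of each sum therefore came from other markers on the list. The 4 astrocyte markers summed to 0.0331 to 0.0468 in the HPC and 0.0380 to 0.0592 in the thalamus. In DAM-like cells they were higher in every thalamus set (0.0321 to 0.0524, with 2 to 4 markers above 0) than in every HPC set (0 to 0.0307, with 0 to 3 above 0). The free RNA genes summed to 1.57 in HPC set 1 and to 0.598 to 0.853 in the other 7 sets. Endothelial markers summed to 0.129 to 0.231 in the HPC and 0.185 to 0.269 in the thalamus. Their part in the results was not tested. Doublets were not removed beyond the filters on genes and the gate on the lead of 1 marker list.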

How the data were processed

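Cells were sorted from the pooled injured-side HPC or thalamus and sequenced with a droplet 3′ chemistry. The authors aligned and counted UMIs with Cell Ranger (7.1.0 in the matrix headers) on mm10, and deposited raw counts per gene and cell in 8 matrices, 4 per region. Whether introns were counted is not given in the sources used here, and 1 listed DAM marker was not analysed here.

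Cells with 200 to 7500 genes and at most 2% mitochondrial UMIs were kept. A class needed at least 30% of its markers detected and a lead of 10 percentage points over the next. Interferon-like cells had at least 4 of 10 markers, MHC class II-like 3 of 4 and cycling 3 of 8. Counts were summed per set and class or state (at least 20 cells) and tested with edgeR 4.0.16 (quasi-likelihood, TMM, low-count filter, R 4.3.3), with p-values adjusted across every tested gene by Benjamini and Hochberg and called under 0.05. DESeq2 1.42.0, no filter, other gates and cut-offs, thinning, a replicate block and leaving out each set were alternatives. Scaling by total UMIs and dropping barcodes found in both regions were added after seeing the data. Single values were tested with exact two-sided permutation tests (scipy 1.17.1). The scripts were tested on simulated data. The genes printed outside the 7 members were called ones with at least 20 CPM, and those closest by likeness, with 1 result not reported here. Members and lists were chosen with earlier results of these data known, and gate thresholds were set after cell counts were seen. Promoter windows came from RefSeq (GRCm38.p6), with 7 of 7 members matched. Depth per set is given with the results. Intervals cover counting error only.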

Additional observations from a re-analysis of the deposited data

Results flagged for a closer look

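Among 70 groups of 4 sets checked for a set far from the others (by Dixon's 95% limit on the gap over the range), 1 was marked: Cd81 in all microglia of thalamus set 1, at 19.5 UMIs per 10,000 against 17.5, 17.6 and 17.5 in the other thalamus sets, where the gap was 0.966 of the range. Chance marks about 1 in 20 such groups.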

How the results depend on the processing

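Of the results for single genes under another setting, 746 kept their direction and their side of the threshold, 31 became called, 11 lost their call and 38 changed sign. Between the regions in all microglia, 2 members were called, and 1 without Malat1-poor cells, with 1 to 3 when 1 set was left out. In DAM-like cells the count of 1 became 4 with DESeq2 and with no filter, and 3 with a mitochondrial limit of 5%, with the set number as a replicate block and with a gate lacking Spp1 and Apoe, and was 1 to 2 with 1 set left out. In homeostatic-like cells 0 became 1 with DESeq2, no filter and the block, and 0 to 1 with 1 set left out. The interaction had 0 to 1.

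The signs that turned belonged to values near 0. Cd53 between regions in DAM-like cells was -0.035 with stricter gates. In homeostatic-like cells Cd151 was 0.0013 with the 5% limit, 0.043 with stricter gates and 0.0047 without Spp1 and Apoe in the gate, where Cd63 was 0.034. With 1 set left out there, Cd82 ran from -0.11 to 0.034, Cd151 from -0.13 to 0.045 and Cd63 from -0.15 to 0.20. Between the states Cd81 was -0.0059 with DESeq2, -0.039 with no filter, -0.0041 without Spp1 and Apoe, -0.020 thinned and -0.18 by total UMIs, and -0.034 to 0.026 with 1 set left out, and Cd151 was -0.045 by total UMIs. Cd53 in cycling cells was -0.15 with sums of at least 10 cells. In macrophages or monocytes Cd53 was 0.024 with stricter gates and -0.17 to 0.12 with 1 set left out. In neutrophils Cd37 was -0.24 with DESeq2, -0.18 with stricter gates, -0.22 by total UMIs and -0.29 to 0.065 with 1 set left out. Without thinning, the thalamus minus HPC difference in the percentage of microglia with a UMI was -2.13 for Cd37 and -0.063 for Cd151. Stricter gates left no dendritic sum, so no value was had there. The causes were not tested.

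Same-numbered sets had correlations of deviations of 0.492, 0.140, 0.447 and 0.0866, 1 of them under 0.1, so the numbers were not taken to pair the sets, although 7 of 8 sets correlated best with their own number, a hint from the data and not from the labels. With the replicate block, calls over all genes between the regions in all microglia went from 1143 higher and 650 lower to 2160 and 1714, and Cd81 became the third member called (0.17, edgeR adjusted p = 0.0234). Low levels of Cd82 and Cd151 limit what small differences could be seen.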
